A study of Rattus norvegicus with 18 samples.

Results

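Collagen genes were examined in RNA from CD11b/c-sorted cells of the rat knee synovium, after surgically induced osteoarthritis (OA) and after sham surgery. The members were the 41 genes, of 30643 in both expression tables, whose symbol names a collagen alpha chain (Col, a type number, a and a chain number). They were split by chain type into 10 fibrillar genes (types 1, 2, 3, 5, 11, 24 and 27), 6 basement membrane genes (type 4), 5 genes of type 6 and 20 others. Of the 41, 39 had an average of 10 or more normalized reads in each table and were tested. The other 2 were not tested: Col25a1 lay between 2.17 and 16.2 normalized reads in the libraries, and Col26a1 between 0 and 9.28. Col1a2 and Col6a3 were not among the 41 symbols and were not analysed here. The sums and shares of collagen reads below therefore lack these 2 chains.

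All rats were male wild-type Sprague Dawley animals, operated on at 12 weeks of age. OA was induced by cutting the anterior cruciate ligament and destabilizing the medial meniscus, and sham rats had the joint opened only. Synovium was collected 4 or 12 weeks after surgery, and each library came from cells of 4 pooled rats at 4 weeks and of 3 pooled rats at 12 weeks. Each group had 5 libraries at the earlier time and 4 at the later one. The unit of replication was therefore a pool and not a rat.

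Collagens are triple-helical proteins of the extracellular matrix, built from 3 alpha chains of the same or of different genes. Fibrillar collagens form the load-bearing cords of the joint capsule and synovial stroma, type 4 forms the sheet-like network of basement membranes around vessels, nerves and muscle fibres, and type 6 forms beaded filaments close to cells. In the synovium most collagen is made by fibroblasts, and the synovium thickens and stiffens as it becomes fibrotic in OA.

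The libraries held 4662344 to 18080503 reads assigned to genes, so that 3 reads, taken here as the limit below which a count of 0 cannot be told from a low level, correspond to 2.06 to 6.96 normalized reads. A normalized read is the gene's read count divided by 1 scaling factor per library, computed separately for each week, so levels are compared within a week and within a gene. The macrophage label was checked first: all 15 macrophage markers examined (Cd68, Csf1r, Adgre1 and others) were detected, and their summed level was 152073 to 183338 normalized reads in OA and 155988 to 161180.0 in sham at 4 weeks, and 202429 to 240379 and 167885 to 236343 at 12 weeks. The 18 fibroblast markers that are not collagens (Pdgfra, Lum, Fap, Dcn and others) were detected as well, and none was at 0. In pooled cells like these, fewer cells of a type and less RNA per cell cannot be told apart. Collagen genes took 1.25% ± 0.144 (SD, n = 5) of normalized reads in OA and 1.08% ± 0.246 (n = 5) in sham at 4 weeks, and 1.03% ± 0.128 (n = 4) and 0.838% ± 0.134 (n = 4) at 12 weeks.

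Sham libraries carrying replicate number 3 stood apart at both weeks. At 4 weeks this library had the fewest reads, 4662344, and the highest summed level among sham libraries of endothelial, pericyte, skeletal muscle, chondrocyte and adipocyte markers. At 12 weeks sham replicate 3 had the highest summed fibroblast markers of its group, 93655 normalized reads, and the lowest summed macrophage markers, 167885. Values without sham replicate 3 are given below for genes whose account turns on it.

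Fold changes below are differences of mean log2(normalized reads + 1), OA minus sham, with standard errors from limma fitted to all genes tested (14861 at 4 weeks, 14666 at 12 weeks). A gene was called at an absolute log2 fold change of at least 0.5 with a Benjamini-Hochberg adjusted p under 0.05. At 4 weeks limma called none of the 39 collagen genes and 0% of all genes, and edgeR called none. At an unadjusted p under 0.05, 8 collagen genes were higher in OA and 3 were lower, where the same threshold took 4.10% and 3.82% of all genes. For collagen genes edgeR gave 6 and 4, and DESeq2 9 and 5. Over all 14861 genes edgeR gave 490 and 722, and DESeq2 637 and 752. Col4a4 was the 1 collagen gene with every OA library above every sham library, a pattern seen in 1.18% of all genes, and no collagen gene had every OA library below (0.693% of all genes). The median log2 fold change of the collagen genes was 0.12, beside 0.03 over all genes tested, and 21 of the 39 lay above 0, as did 57.1% of all genes. At 12 weeks limma again called none of the 39 and 0% of all genes, and edgeR called none. Here 14 collagen genes were higher at an unadjusted p under 0.05 and 3 were lower, where the background was 5.75% and 6.62%. In 5 collagen genes every OA library lay above every sham library (2.85% of all genes), and in none did every OA library lie below (3.44% of all genes). The median of the collagen genes at 12 weeks was 0.23, beside -0.01 over all genes tested, and 29 of the 39 lay above 0, as did 47.5% of all genes. DESeq2 on the recovered reads called Col4a4 at 4 weeks, where it called 0.121% of all genes as higher and 0.0606% as lower, and Col5a1 and Col11a1 at 12 weeks, where it called 0.532% and 0.116%.

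**Figure D1:**
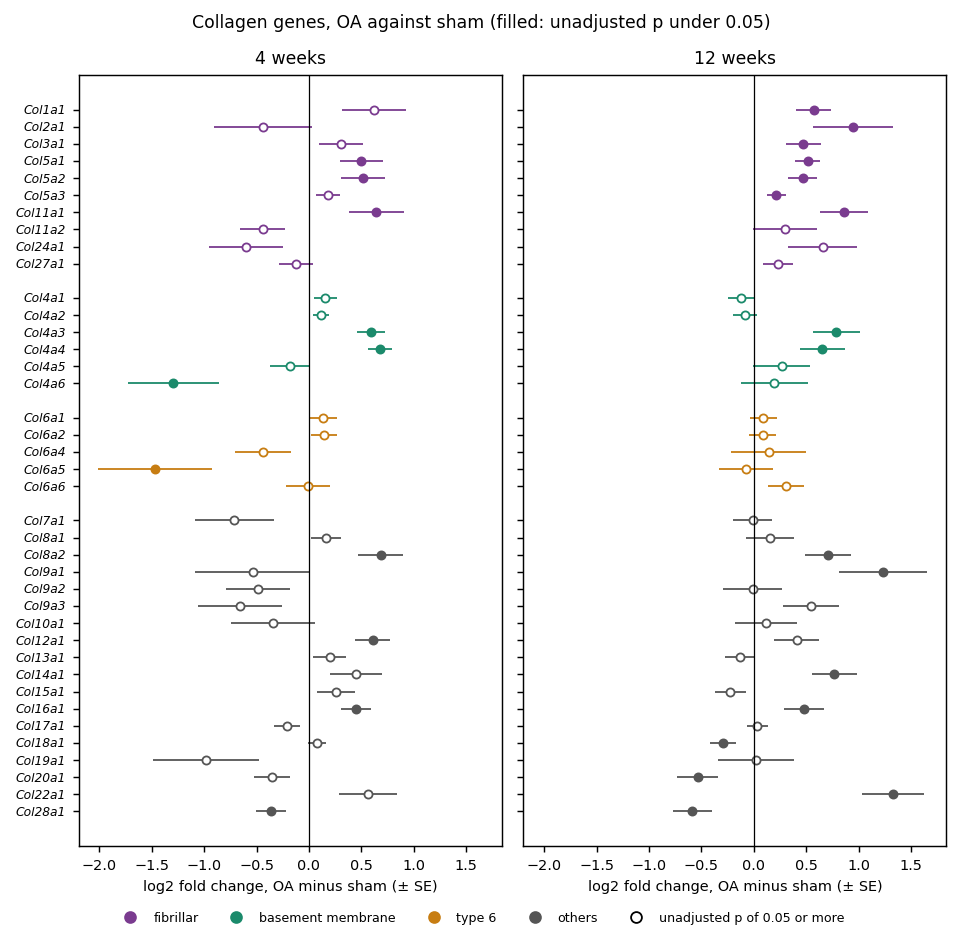
Log2 fold change of OA against sham for the 39 tested collagen genes at 4 weeks (left) and 12 weeks (right), with 1 SE on each side; colour gives the chain type and filled points have an unadjusted p under 0.05. All 10 fibrillar points lie right of 0 at 12 weeks, against 6 of 10 at 4 weeks, and the type 6 points at 12 weeks lie between -0.07 and 0.31.

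At 12 weeks all 10 fibrillar genes had log2 fold changes above 0 and 7 had an unadjusted p under 0.05, with a median log2 fold change of 0.49 and a range of 0.22 to 0.95. At 4 weeks 6 of the 10 were above 0, 3 had an unadjusted p under 0.05, all 3 higher, and the median was 0.24 with a range of -0.60 to 0.64. None of the 10 passed the adjusted threshold in limma at either week. Their summed level was 75165, 115288, 76972, 88432 and 93414 normalized reads in the OA libraries at 4 weeks and 50112, 56645, 59925, 116796 and 77414 in the sham libraries. At 12 weeks it was 107945, 84232, 92234 and 82686 in OA and 55426, 58961, 85604 and 63379.6 in sham. The 4-week sham libraries thus spanned the whole OA range, through replicates 4 and 5, while at 12 weeks sham replicate 3 alone reached into the OA range. The ratio of the group means, OA over sham, was 1.24 at 4 weeks and 1.39 at 12 weeks, and without sham replicate 3 it was 1.19 and 1.55.

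Values of single libraries are listed in the order of their replicate numbers. Col1a1 encodes the chain present in 2 copies in type 1 collagen, the main collagen of bone, tendon and scar. It had 17009, 21459.5, 15808, 21059 and 18898 normalized reads in the 5 OA libraries at 4 weeks and 8190.1, 8093, 8258, 25719.6 and 19111 in the 5 sham libraries. Sham replicates 1, 2 and 3 lay far below all OA libraries and sham replicates 4 and 5 within or above them, and the difference of 0.62 ± 0.31 had an adjusted p of 0.646 in limma. At 12 weeks Col1a1 had 23039, 16119.8, 17924 and 15531 in OA and 11056, 10840.0, 16554 and 10716 in sham. The sham library of replicate 3 was above 2 of the 4 OA libraries and the other sham libraries were below all of them. The log2 fold change was 0.57 ± 0.17 (adjusted p = 0.284), and 0.72 without sham replicate 3 (adjusted p = 0.0446). Leaving out each 12-week library in turn gave 0.45 to 0.72, with adjusted p from 0.0446 to 0.637 in limma.

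Col3a1, whose chains form type 3 collagen and share fibrils with type 1 in soft tissue, had 45742, 77964, 50279, 55745 and 61718 normalized reads in OA and 33811, 40521, 43709, 75354 and 47362 in sham at 4 weeks. The groups overlapped, and the log2 fold change was 0.31 ± 0.21 (adjusted p = 0.713). At 12 weeks it had 70359, 56931, 60622 and 55142 in OA and 36073, 39735, 58083 and 43218 in sham. Again sham replicate 3 stood within the OA range while the other 3 sham libraries stood below it, with a log2 fold change of 0.47 ± 0.17 (adjusted p = 0.332), and 0.61 without that library (adjusted p = 0.0909).

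Types 5 and 11 are minor fibrillar collagens that sit inside type 1 and type 2 fibrils and set their diameter, and their chains can combine in mixed molecules. Col5a1 had 3974, 5252, 3638, 3897 and 4494 normalized reads in OA and 2268, 2457, 2309, 4962 and 3703 in sham at 4 weeks, with sham replicates 4 and 5 inside the OA range (0.50 ± 0.20, adjusted p = 0.607). At 12 weeks Col5a1 had 4835, 3641, 4332 and 4019.6 in OA and 2535, 2662, 3584 and 3043 in sham. The 12-week groups did not overlap, although the lowest OA library and the highest sham library, replicate 3, lay close together. The means were 4207 ± 505 (SD, n = 4) and 2956 ± 471 (n = 4), a ratio of 1.42, with a log2 fold change of 0.51 ± 0.12. Its adjusted p was 0.265 in limma and 0.0194 in DESeq2, and 0.0368 in limma without sham replicate 3. With each 12-week library left out in turn, the log2 fold change was 0.44 to 0.61 and the adjusted p in limma 0.0368 to 0.637.

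Col11a1 followed the same order of groups. It had 431, 517, 250, 324 and 310.2 normalized reads in OA and 218, 134, 204, 406 and 249 in sham at 4 weeks, where sham replicate 4 lay above 3 of the 5 OA libraries (0.64 ± 0.26, adjusted p = 0.607). By 12 weeks the libraries held 279, 204, 300.3 and 216 in OA and 88.4, 119, 173 and 183 in sham, without overlap. The 12-week ratio of means was 1.78 and the log2 fold change 0.86 ± 0.23, with an adjusted p of 0.278 in limma and 0.0372 in DESeq2.

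Col5a2, the partner chain of Col5a1, had 4552, 6963, 3999, 4803 and 5346 normalized reads in OA and 3044, 3092, 2593, 6066 and 3707 in sham at 4 weeks, where sham replicate 4 alone reached the OA range. The 12-week values were 6319.6, 4653, 5540.3 and 4393 in OA and 3261, 3339, 4678 and 3846 in sham, and sham replicate 3 alone reached it. The log2 fold changes were 0.51 ± 0.21 (adjusted p = 0.607) and 0.47 ± 0.14 (adjusted p = 0.29), the second being 0.57 without sham replicate 3 (adjusted p = 0.0911). Col5a3, the remaining chain of the type, showed 0.18 ± 0.12 at 4 weeks and 0.22 ± 0.09 at 12 weeks. The 4-week value was 0.10 without sham replicate 3.

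Upstream sequence is shown for Col5a1 and Col11a1, the fibrillar genes that DESeq2 called at 12 weeks. The runs are the 120 bases before each start in RefSeq on the GRCr8 rat assembly, and capitals mark GC boxes (GGGCGG or its complement, the element bound by Sp1-type factors) and CCAAT boxes (CCAAT or ATTGG).
Col5a1, chr3:31606760-31606879, plus strand: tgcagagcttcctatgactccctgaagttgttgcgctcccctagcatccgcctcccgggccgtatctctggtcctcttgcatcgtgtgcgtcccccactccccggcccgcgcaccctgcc
Col11a1, chr2:204509016-204509135, plus strand: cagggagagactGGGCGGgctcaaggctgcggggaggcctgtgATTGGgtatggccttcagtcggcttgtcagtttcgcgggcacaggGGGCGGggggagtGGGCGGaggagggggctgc
The Col11a1 run holds both elements and the Col5a1 run neither, although Col5a1 has a GC box further upstream. In the 250 bases before the start, 6 of the 7 fibrillar genes with a promoter entry and 18 of all 31 collagen genes with one held a GC box on either strand, as did 30.5% of 33469 rat promoters. CCAAT boxes were in 2 of the 7 and in 34.0% of all promoters, and TATAAA was in none of the 7 and in 12.9% of all. These are matches of letters only. The 7 did not include Col1a1, Col2a1 or Col3a1. A collagen gene was counted once, as holding a box if any of its promoter entries did. The shares over all promoters count every entry, so the units differ.

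The remaining fibrillar genes are those of cartilage or of low level. Col2a1, the main fibrillar collagen of cartilage, had 929, 394, 828, 331 and 349 normalized reads in OA and 618, 208, 947, 1456 and 912 in sham at 4 weeks, a log2 fold change of -0.44 ± 0.47. At the later time it had 374, 369, 1085 and 1277 in OA and 311, 341, 305 and 426 in sham. Replicates 3 and 4 of the 12-week OA group stood far above all other libraries while replicates 1 and 2 lay below the highest sham library, and the log2 fold change of 0.95 ± 0.38 had an adjusted p of 0.377. Without OA replicate 4 it was 0.63. Col11a2, Col24a1 and Col27a1 were at -0.44 ± 0.21, -0.60 ± 0.35 and -0.12 ± 0.16 at 4 weeks and at 0.30 ± 0.30, 0.66 ± 0.33 and 0.23 ± 0.14 at 12 weeks, and none of the 3 reached an unadjusted p of 0.05. Col24a1 was at -0.29 at 4 weeks without sham replicate 3. The chondrocyte markers summed to 6845 to 11365 in OA and 5967 to 13051 in sham at 12 weeks, with none of the 8 tested at an unadjusted p under 0.05. At 4 weeks they summed to 5312 to 8003 in OA and 4929 to 10240.2 in sham, and at that threshold Comp was higher (0.96 ± 0.42) and Chad lower (-0.60 ± 0.23) of the 8. Their part in the Col2a1 values was not tested.

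**Figure D2:**
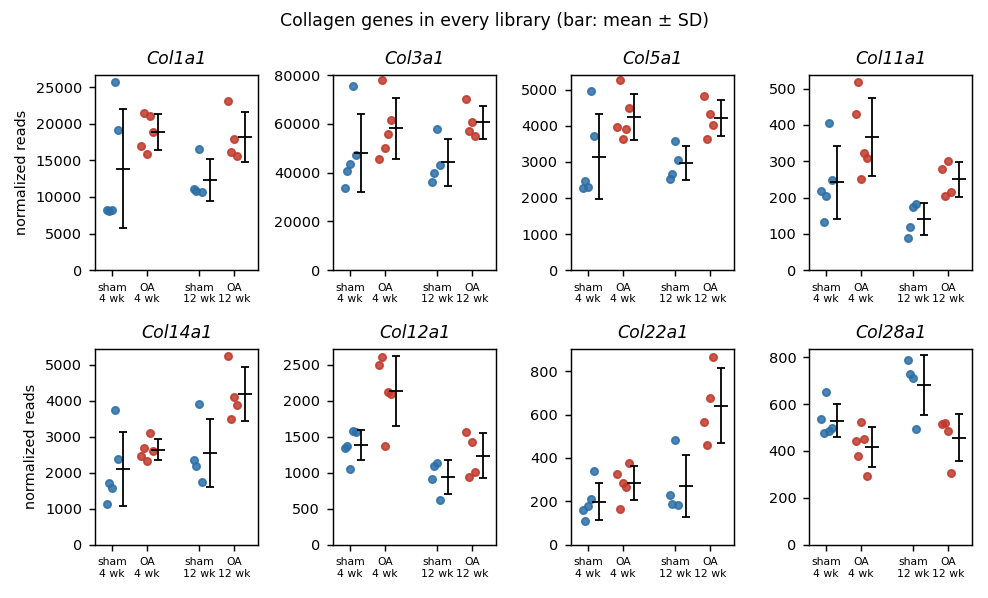
Normalized reads of 8 collagen genes in every library, by surgery and week; points are libraries and the bar to the right of each group is its mean with 1 SD. Col5a1 and Col11a1 show no overlap at 12 weeks, Col1a1, Col3a1, Col14a1 and Col22a1 show 1 sham library, replicate 3, reaching into the 12-week OA points, and Col28a1 lies lower in OA at both weeks.

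Type 4 genes divided by gene pair. Col4a1 and Col4a2, which encode the chains of the common basement membrane network, were near 0, whereas Col4a3 and Col4a4, which encode chains of the specialised network known from kidney and inner ear, were higher in OA at both weeks, without passing the adjusted threshold in limma. Over the 6 genes the median log2 fold change was 0.14 at 4 weeks and 0.23 at 12 weeks, with 2 genes higher at an unadjusted p under 0.05 at each week, Col4a3 and Col4a4 both times, and Col4a6 lower at 4 weeks. Summed type 4 reads had an OA to sham ratio of 1.11 at 4 weeks and 0.947 at 12 weeks.

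The genes of each type 4 pair lie head to head, starting in opposite directions from a shared stretch of DNA. In RefSeq on GRCr8, 76 bases separate the starts of Col4a2 and Col4a1, 412 bases those of Col4a4 and Col4a3, and 1414 bases those of Col4a6 and Col4a5. The whole shared interval of the first pair and 120 bases before each start of the second are shown because the values of these pairs are set side by side here, and capitals mark GC boxes.
Col4a2 to Col4a1, chr16:84885521-84885596, plus strand, read toward Col4a1: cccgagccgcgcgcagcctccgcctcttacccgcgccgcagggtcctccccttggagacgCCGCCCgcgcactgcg
Col4a3, chr9:91323870-91323989, plus strand: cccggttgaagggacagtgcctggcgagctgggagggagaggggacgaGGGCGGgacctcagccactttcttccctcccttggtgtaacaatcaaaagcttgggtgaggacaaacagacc
Col4a4, chr9:91323578-91323697, minus strand: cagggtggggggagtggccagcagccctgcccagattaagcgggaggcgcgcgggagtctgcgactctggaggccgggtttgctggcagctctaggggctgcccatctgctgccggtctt
A GC box stood in the 250 bases before the start in 5 of the 6 type 4 genes, all but Col4a4, and a CCAAT box in 2 of the 6, Col4a1 and Col4a2.

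Col4a4 had 602, 577, 725, 581 and 570.4 normalized reads in OA and 383, 323, 323, 408 and 487 in sham at 4 weeks. No sham library reached the lowest OA library, and the means were 611 ± 64.5 (SD, n = 5) and 385 ± 68.4 (n = 5) with a log2 fold change of 0.68 ± 0.12. The adjusted p was 0.253 in limma and 0.00104 in DESeq2. At 12 weeks Col4a4 had 675, 868, 744 and 855 in OA and 632, 288, 574 and 579 in sham, again without overlap. Sham replicate 2 lay far below the rest of its group, and the log2 fold change was 0.66 ± 0.22 (adjusted p = 0.325 in limma and 0.154 in DESeq2). Without sham replicate 2 it was 0.39.

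Col4a3 had 208, 229.6, 262, 243 and 219 normalized reads in OA and 165, 126, 128, 152 and 208 in sham at 4 weeks, with the highest sham library level with the lowest OA library (0.59 ± 0.13, adjusted p = 0.392 in limma and 0.0571 in DESeq2). At 12 weeks it had 243, 317, 273 and 269 in OA and 202, 92, 173 and 195 in sham. The 12-week groups did not overlap, the lowest library was sham replicate 2 as for Col4a4, and the log2 fold change was 0.79 ± 0.22 (adjusted p = 0.278), and 0.53 without that library.

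Col4a1 had 19885, 18189, 15362, 19360.3 and 19015 normalized reads in OA and 16912, 18382, 13536, 16004 and 17678 in sham at 4 weeks, and at 12 weeks 15014, 13865, 15753 and 11992 in OA and 15247, 16114, 17809 and 12474 in sham. Col4a2 had 12959.9, 12409, 11349, 12889 and 12889 in OA and 11589.8, 12124, 11361, 10669 and 11871 in sham at 4 weeks, and at 12 weeks 10848, 9349, 10679.5 and 8364 in OA and 10269.5, 10922, 11613 and 8689 in sham. Groups overlapped in both genes and weeks, with log2 fold changes of 0.16 ± 0.11 and 0.12 ± 0.08 at 4 weeks and -0.12 ± 0.13 and -0.08 ± 0.11 at 12 weeks. Without sham replicate 3 they were 0.09 and 0.11, and then -0.04 and -0.02. Endothelial markers, from cells that make these chains for vessel walls, summed to 42174 to 56578 in OA and 45682 to 55490.0 in sham at 4 weeks, and to 41713 to 51842 and 47914 to 67765 at 12 weeks. Of 10 tested, none was past an unadjusted p of 0.05 at 4 weeks and 1, Cdh5, was lower at 12 weeks (-0.35 ± 0.11).

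Col4a6, part of a further type 4 network found around smooth muscle and epithelia, was near the detection limit. It had 6.24, 3.81, 12.4, 14.1 and 5.42 normalized reads in OA and 10.1, 25.2, 39.5, 23.4 and 12.9 in sham at 4 weeks, and at 12 weeks 20.9, 28.6, 19.3 and 11.8 in OA and 18.9, 16.3, 24.2 and 10.3 in sham. The 4-week groups overlapped, with the highest value in sham replicate 3, and the log2 fold change was -1.29 ± 0.43 at 4 weeks (adjusted p = 0.563, and -1.06 without that library) and 0.19 ± 0.32 at 12 weeks (0.36 without sham replicate 3). Col4a5, which joins Col4a3 and Col4a4 in their network, was at -0.18 ± 0.19 and 0.27 ± 0.27, and at -0.08 and 0.55 without sham replicate 3 (adjusted p = 0.912 and 0.289).

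**Figure D3:**
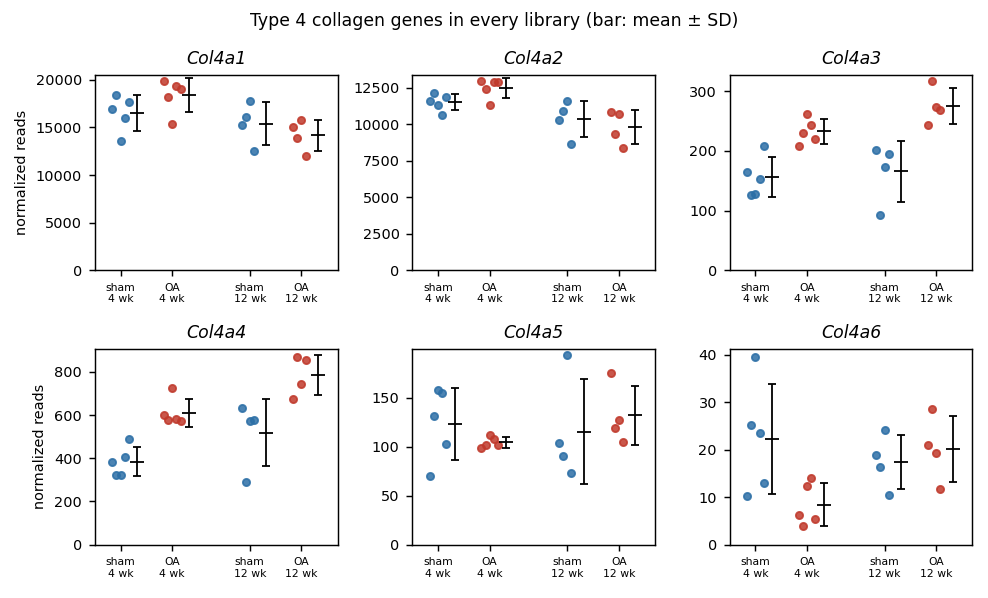
Normalized reads of the 6 type 4 collagen genes in every library, by surgery and week; points are libraries and the bar is the mean with 1 SD. Col4a4 separates OA from sham at both weeks and Col4a3 at 12 weeks, while Col4a1 and Col4a2 overlap throughout.

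In type 6, the main chains Col6a1 and Col6a2 differed between OA and sham by 0.08 to 0.14 on the log2 scale at the 2 weeks, and no type 6 gene was higher at an unadjusted p under 0.05 at either week, while Col6a5 was lower at 4 weeks. The medians were -0.01 at 4 weeks and 0.09 at 12 weeks, and the summed reads had OA to sham ratios of 1.08 and 1.06. Col6a1 had 5739, 6847, 5006, 5527 and 5821 normalized reads in OA and 4198, 5024, 5385, 6908 and 4992 in sham at 4 weeks, and at 12 weeks 6812, 5762, 6173 and 4960.1 in OA and 5408, 5612, 6820.0 and 4525 in sham. Col6a2 had 6080.3, 7238, 5369.7, 6203 and 6137 in OA and 4453, 5291, 5863, 7258 and 5519.9 in sham at 4 weeks, and at 12 weeks 7474, 6096, 6703 and 5329 in OA and 5667, 6335, 7099 and 5047 in sham. The 2 genes rank the libraries almost alike, with sham replicate 4 at the top at 4 weeks, and overlap between groups throughout. Without sham replicate 3 their 12-week log2 fold changes of 0.09 ± 0.13 and 0.08 ± 0.13 were 0.19 and 0.17.

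The other type 6 chains, Col6a4, Col6a5 and Col6a6, can take the place of the long chain. Col6a5 had 29.8, 9.53, 5.49, 17.4 and 11.9 normalized reads in OA and 27.6, 32, 139, 38.7 and 14.7 in sham at 4 weeks, and at 12 weeks 30.5, 18.4, 23.6 and 20.4 in OA and 28, 22.3, 33.1 and 16.1 in sham. A single sham library, replicate 3, stood at several times the others at 4 weeks, and the log2 fold change was -1.47 ± 0.54 with it and -1.004 without it (adjusted p = 0.575 and 0.447). At 12 weeks it was -0.07 ± 0.26 with that group's replicate 3 and 0.07 without it. Col6a4 had 31.2, 25.7, 13.7, 25.8 and 24.9 in OA and 26.7, 28.1, 55.7, 32.8 and 24.9 in sham at 4 weeks, with the same library highest, and at 12 weeks 34.9, 35.7, 18.2 and 25.7 in OA and 25.7, 44.7, 12.7 and 26.4 in sham. The log2 fold changes were -0.44 ± 0.27 and 0.14 ± 0.36, or -0.24 and -0.17 without sham replicate 3. Col6a6 had 336, 322, 515, 429.5 and 413 in OA and 306, 353, 290.1, 612 and 530.3 in sham at 4 weeks, and at 12 weeks 560.2, 469.8, 460.1 and 483 in OA and 361, 336, 598 and 344 in sham. Its 4-week log2 fold change was -0.01 ± 0.21 and -0.12 without sham replicate 3. Its 12-week log2 fold change was 0.31 ± 0.17 with all libraries (adjusted p = 0.471) and 0.50 without sham replicate 3, the highest sham library (adjusted p = 0.0402). With each 12-week library left out in turn it ranged from 0.23 to 0.50, with adjusted p up to 0.782 in limma.

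The 18 other genes tested spread widely, from -0.98 to 0.68 at 4 weeks and from -0.59 to 1.33 at 12 weeks, with medians of -0.07 and 0.07. At 4 weeks 3 were higher and 1 lower at an unadjusted p under 0.05, and at 12 weeks 5 were higher and 3 lower. Several belong to the fibril-associated collagens, which coat the surface of fibrils and link them to other matrix. Col12a1, found in tendon and other tissue under tension, had 2497, 2602, 1369, 2117 and 2096 normalized reads in OA and 1344, 1373, 1051, 1578 and 1567 in sham at 4 weeks, with 4 of the 5 OA libraries above all sham libraries (0.61 ± 0.17, adjusted p = 0.403). By 12 weeks the libraries held 1569, 943, 1426 and 1009 in OA and 908, 1085, 1131 and 613 in sham, with overlap (0.41 ± 0.21, adjusted p = 0.449).

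Col14a1, a close relative of Col12a1 and a marker of resting fibroblasts, had 2476, 2682, 2329, 3112 and 2608 normalized reads in OA and 1123, 1699, 1559.7, 3739.9 and 2388 in sham at 4 weeks (0.45 ± 0.25). The 12-week values were 5234, 3501, 4100.0 and 3868 in OA and 2346, 2179, 3896 and 1733 in sham. Without sham replicate 3, which lay inside the OA range, the 12-week log2 fold change went from 0.77 ± 0.22 (adjusted p = 0.278) to 1.00 (adjusted p = 0.0242). Over the omissions of each 12-week library it ranged from 0.61 to 1.00, with adjusted p up to 0.663 in limma. Col22a1, which lies at tissue junctions such as that of muscle and tendon, had 325, 166, 285, 266 and 374 in OA and 159, 107, 176, 209.8 and 338 in sham at 4 weeks (0.57 ± 0.28), and at 12 weeks 565, 461, 675 and 865 in OA and 228, 189, 482 and 183 in sham. It had the highest log2 fold change of the 39 collagen genes at 12 weeks, 1.33 ± 0.30, with a ratio of means of 2.37 and an adjusted p of 0.265. Sham replicate 3 was above the lowest OA library, and without it the log2 fold change was 1.64 (adjusted p = 0.0111). Over the omissions of each 12-week library the log2 fold change ranged from 1.17 to 1.64, with adjusted p up to 0.637 in limma. Skeletal muscle markers summed to 1901 to 3094 in OA and 1530.1 to 1721 in sham at 12 weeks, with 7 of the 16 tested higher at an unadjusted p under 0.05, and their part in the Col22a1 values was not tested.

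Col16a1, a fibril-associated collagen of many connective tissues, had 835, 969, 633, 805 and 782 normalized reads in OA and 493, 515, 513, 761 and 685 in sham at 4 weeks, and at 12 weeks 1000, 657, 883 and 693 in OA and 484, 507, 838 and 517 in sham. The groups overlapped at both weeks (0.45 ± 0.14, adjusted p = 0.522, and 0.48 ± 0.19, adjusted p = 0.368). At 12 weeks they did so through sham replicate 3 alone, without which the log2 fold change was 0.66 (adjusted p = 0.0771). Col9a1, a fibril-associated collagen of cartilage, was near the detection limit, with 22.2, 15.2, 24.7, 7.48 and 9.76 in OA and 5.53, 12.6, 55.7, 41 and 25.8 in sham at 4 weeks, and at 12 weeks 12.2, 16.3, 15 and 40.8 in OA and 9.07, 3.44, 8.9 and 10.3 in sham. The 12-week groups did not overlap, with 1 OA library, replicate 4, far above the rest, and the log2 fold change was -0.54 ± 0.55 at 4 weeks and 1.23 ± 0.42 at 12 weeks (adjusted p = 0.332). Without sham replicate 3, the highest library at 4 weeks, the 4-week value was -0.20.

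Col15a1 and Col18a1 encode basement membrane collagens whose ends can be released as antiangiogenic fragments, and those of Col18a1 as endostatin. Col18a1 had 5848, 5432, 5229, 6323 and 6354 normalized reads in OA and 5451, 5332, 5334, 5149 and 6428 in sham at 4 weeks, and at 12 weeks 4642, 4243, 4761 and 3395 in OA and 5309, 5798, 5411 and 4273 in sham. At 12 weeks 3 of the 4 sham libraries were above all OA libraries, and the log2 fold change was -0.29 ± 0.12 (adjusted p = 0.388), against 0.08 ± 0.09 at 4 weeks. Without OA replicate 4 the 12-week value was -0.18. Col15a1 had 227, 261, 234, 191 and 199.5 in OA and 156, 149, 251, 143 and 261 in sham at 4 weeks, and at 12 weeks 182, 123, 205 and 188 in OA and 193, 204, 214 and 191 in sham, with overlap at both (0.26 ± 0.18 and -0.22 ± 0.15). Col10a1, the collagen of hypertrophic cartilage, had 36.7, 43.8, 83.1, 47.4 and 62.9 in OA and 32.2, 39.7, 60.3, 175 and 97.6 in sham at 4 weeks, and at 12 weeks 48, 77.6, 41.8 and 110.5 in OA and 49.1, 78.2, 66.1 and 49.4 in sham, also with overlap (-0.34 ± 0.40 and 0.11 ± 0.30).

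At an unadjusted p under 0.05, 7 of the 39 collagen genes tested were higher in OA at both weeks, namely Col4a3, Col4a4, Col5a1, Col5a2, Col8a2, Col11a1 and Col16a1, where 1.59% of the 14420 genes tested in both weeks were. Col28a1 was the 1 gene lower at both, where 0.714% of all genes were. Without sham replicate 3, Col5a1, Col5a2, Col11a1 and Col28a1 were not past that threshold at 4 weeks. Their 4-week log2 fold changes were then 0.41, 0.40, 0.60 and -0.29. Leaving out 4-week sham replicate 1 or 2 in its place also took Col5a1, Col5a2 and Col11a1 out of those past it. Col8a2 and Col28a1, and Col20a1 below, were singled out after their values were seen. Col8a2, a short-chain collagen of endothelial and corneal basement membranes, was at 0.68 ± 0.22 and 0.71 ± 0.22 (adjusted p = 0.537 and 0.311), and at 0.92 at 12 weeks without sham replicate 3 (adjusted p = 0.0584). Col28a1, a collagen known from peripheral nerve, had 442, 378, 523, 449 and 291 normalized reads in OA and 538, 477, 649.9, 483 and 499 in sham at 4 weeks, and at 12 weeks 513, 521, 486 and 306 in OA and 788, 729, 712 and 493 in sham. In each week the groups overlapped through 1 library, OA replicate 3 at 4 weeks and sham replicate 4 at 12 weeks, and the log2 fold changes were -0.36 ± 0.15 and -0.59 ± 0.19 (adjusted p = 0.602 and 0.318). Without OA replicate 5 the 4-week value was -0.24. Col20a1 was lower at 12 weeks at an unadjusted p under 0.05 (-0.54 ± 0.20, adjusted p = 0.352). Of the 39, 16 had a positive log2 fold change at both weeks, 5 a negative one at both, 13 went from negative at 4 weeks to positive at 12 weeks and 5 the other way. Of the 14420 genes tested in both weeks, 58.4% had the same sign at both.

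The OA effect at 12 weeks was compared with that at 4 weeks directly, as the interaction in 1 limma fit of all 18 libraries over 14420 genes. No collagen gene had an adjusted p under 0.05, as no gene did (0%), and the lowest adjusted p of a collagen gene was 0.962. At an unadjusted p under 0.05 the effect of 4 collagen genes was higher at 12 weeks, Col4a6, Col9a1, Col9a3 and Col24a1, and that of 1, Col18a1, was lower (2.19% and 0.804% of all genes). The 3 greatest differences were those of Col9a1, 1.69 ± 0.74, Col4a6, 1.43 ± 0.55, and Col2a1, 1.42 ± 0.69. Leaving out 1 library moved the first count between 2 and 7 and the second between 0 and 2. Over all genes these counts then ran from 187 to 481 and from 60 to 229. So the larger number of fibrillar genes past the unadjusted threshold at 12 weeks than at 4 weeks is not a tested difference between weeks, and Col1a1, for example, differed by -0.01 ± 0.40.

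Chains that share a molecule or a fibril were compared as ratios of (normalized reads + 1) within a library, which hardly depend on the library's scaling. Of the 8 ratios tested between OA and sham (Col3a1 to Col1a1, Col5a2 to Col5a1, Col4a2 to Col4a1 and Col6a2 to Col6a1, each at both weeks), none passed an adjusted p of 0.05 in a two-sided exact permutation test, with adjusted p from 0.857 to 0.929. The smallest unadjusted p such a test can give is 0.00794 with 5 against 5 libraries and 0.0286 with 4 against 4. After adjustment over 8 ratios, a single ratio at that smallest p would not pass. These tests therefore cannot show that the ratios were unchanged. The log2 ratio of Col6a2 to Col6a1 was 0.10 ± 0.04 (SD, n = 5) in OA and 0.10 ± 0.03 (n = 5) in sham at 4 weeks, and 0.11 ± 0.02 (n = 4) and 0.11 ± 0.06 (n = 4) at 12 weeks. Its SD within groups was 0.0351 at 4 weeks, while those of the 2 chains were 0.21 and 0.217. Col3a1 to Col1a1 was the least steady, with 1.61 ± 0.19 in OA and 1.93 ± 0.48 in sham at 4 weeks and values from 1.31 to 2.40 over the sham libraries.

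Ratios inside type 4 were added after the values were seen and are given without a test. Col4a4 to Col4a3 was 1.39 ± 0.11 in OA and 1.31 ± 0.09 in sham at 4 weeks, and 1.51 ± 0.10 and 1.64 ± 0.07 at 12 weeks. The SD of that ratio at 12 weeks, 0.0874, was below those of the chains, 0.391 and 0.389. Col4a3 to Col4a1 was -6.30 ± 0.26 in OA and -6.73 ± 0.28 in sham at 4 weeks, and -5.68 ± 0.25 and -6.58 ± 0.64 at 12 weeks, so that this ratio was 0.44 and 0.91 higher in OA. The 4-week groups overlapped. At 12 weeks sham replicate 2 lay lowest, at -7.44, against -6.68 to -5.99 in the other sham libraries.

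**Figure D4:**
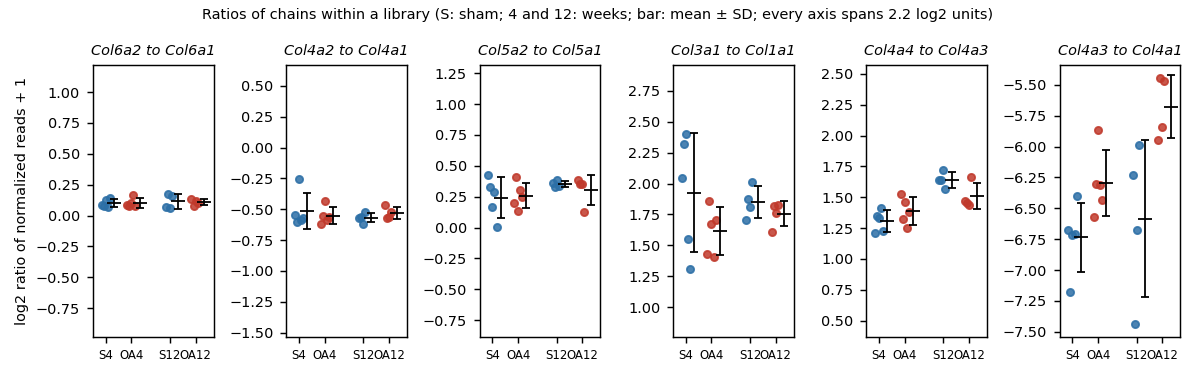
Log2 ratio of 2 collagen chains in every library for 6 pairs, by surgery and week, with the mean and 1 SD; every axis spans the same 2.2 log2 units, around a different centre. Col6a2 to Col6a1 stays within a narrow band in all 18 libraries, Col3a1 to Col1a1 scatters among 4-week sham libraries, and Col4a3 to Col4a1 is higher on average in OA at both weeks.

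Fibroblast content was set beside the collagen values, because fibroblasts are the main makers of collagen. The 18 fibroblast markers summed to 50679.6 to 73020.2 normalized reads in OA and 48294 to 82230.1 in sham at 4 weeks, and to 93724 to 98170.2 and 59940.0 to 93655 at 12 weeks. At 12 weeks the groups did not overlap in that sum, although sham replicate 3 lay just under the lowest OA library, 11 of the 18 markers were higher at an unadjusted p under 0.05 and 1 was lower, and at 4 weeks 4 were higher and 2 lower. When the mean log2 level of these markers was added to limma as a term, the collagen genes higher at an unadjusted p under 0.05 numbered 5 in place of 8 at 4 weeks and 1 in place of 14 at 12 weeks, and those lower numbered 8 in place of 3 at both weeks. The background in that fit was 3.73% higher and 2.44% lower at 4 weeks, and 11.6% and 13.5% at 12 weeks. The median log2 fold change of the collagen genes became -0.04 and -0.02.

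With that term, Col1a1 at 12 weeks was at 0.06 ± 0.11, Col14a1 at 0.06 ± 0.12, Col5a1 at 0.22 ± 0.13 and Col11a1 at 0.57 ± 0.32. Col22a1 was at 0.61 ± 0.33 at 12 weeks, against 1.33 ± 0.30 without the term. The 1 collagen gene higher at an unadjusted p under 0.05 at 12 weeks was Col2a1, at 1.36 ± 0.55 against 0.95 ± 0.38. Col4a3 and Col4a4 were at 0.55 ± 0.16 and 0.62 ± 0.14 at 4 weeks and 0.66 ± 0.33 and 0.49 ± 0.32 at 12 weeks, against 0.59 ± 0.13, 0.68 ± 0.12, 0.79 ± 0.22 and 0.66 ± 0.22 without it. None of these passed the adjusted threshold in that fit. Col4a5 was called lower at 12 weeks (-0.62 ± 0.16, adjusted p = 0.0427), a gene at 0.27 ± 0.27 without the term and at 0.55 without the term and sham replicate 3, in a fit that called 2.03% of all genes higher and 4.21% lower at 12 weeks and 0% at 4 weeks. In the mean log2 level used as the term, the 12-week OA libraries lay at 10.26 to 10.54, sham replicate 3 at 10.36 and the other sham libraries at 9.841 to 9.997, so apart from that library the term and the surgery cannot be told apart at 12 weeks. Without the term, 4.10% of all genes were higher and 3.82% lower at an unadjusted p under 0.05 at 4 weeks. At 12 weeks these shares were 5.75% and 6.62%. Of the other cell type markers tested without the term, higher and lower in OA at an unadjusted p under 0.05 were 0 and 2 of 11 pericyte and smooth muscle markers at 4 weeks and 1 and 3 of 11 at 12 weeks, 0 and 1 of 7 osteoblast markers and then 2 and 0 of 7, and 0 and 3 of 7 adipocyte markers and then 0 and 3 of 5. They were 1 and 0 of 9 Schwann cell markers and then 3 and 0 of 8, 0 and 0 of 4 T and NK cell markers and then 1 and 0 of 4, and 0 of 8 neutrophil markers at both weeks. Macrophage markers were at 0 and 0 of 15 and then 1 and 0 of 15, and skeletal muscle markers at 0 and 0 of 15 at 4 weeks. Their part in the collagen values was not tested.

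**Figure D5:**
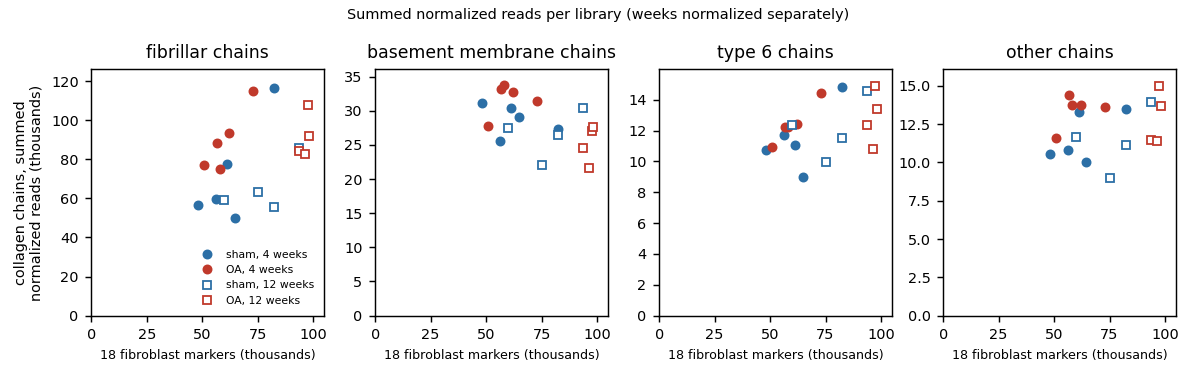
Summed normalized reads of each chain type against those of 18 fibroblast markers, both divided by 1000, with 1 point per library; filled circles are 4-week and open squares 12-week libraries, OA in red and sham in blue. At 12 weeks the OA squares lie right of every sham square, and the sham library nearest to them, replicate 3, has the highest fibrillar sum of its group.

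Genes that process collagen were examined by step of the pathway, with unadjusted p under 0.05 as for the collagen genes, and none was called by limma at either week. Over all genes that threshold took 4.10% higher and 3.82% lower at 4 weeks, and 5.75% and 6.62% at 12 weeks. For folding and hydroxylation of the chains in the endoplasmic reticulum, 2 of 16 genes were higher and none lower at 12 weeks, and none either way at 4 weeks. The 2 were Plod2, a lysyl hydroxylase (991 ± 183 in OA, 638 ± 241 in sham, 0.71 ± 0.26), and P4ha1, a prolyl hydroxylase subunit (0.21 ± 0.09). Of 7 genes for export, Klhl12 alone was past the threshold, lower at 12 weeks (-0.37 ± 0.12). Of 6 genes for removal of the propeptides, Adamts14 was higher at both weeks (0.52 ± 0.20 and 0.91 ± 0.22) and Adamts2 at 12 weeks (0.50 ± 0.16), and DESeq2 called Adamts14 at 12 weeks (adjusted p = 0.0235).

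Cross-linking and fibril assembly had 6 of 13 genes higher at 12 weeks and none lower, and 3 higher and 1 lower at 4 weeks. Lox, Loxl1 and Loxl2 encode the enzymes that oxidise lysines to cross-link fibrils, and were at 0.60 ± 0.25, 0.60 ± 0.13 and 0.30 ± 0.09 at 12 weeks. Loxl1 had 363 ± 37.3 normalized reads in OA and 241 ± 40.8 in sham and was called by DESeq2 (adjusted p = 0.00905, against 0.265 in limma). The other 3, Dcn, Lum and Fn1, are also among the fibroblast markers. At 4 weeks Lox, Loxl2 and Lum were higher and Loxl4 lower (-0.50 ± 0.19). Of the collagen receptors, Mrc2, which takes up collagen for breakdown, and Itga11, an integrin of fibroblasts, were higher at 12 weeks (0.71 ± 0.15 and 0.45 ± 0.13) among 11 tested, and DESeq2 called Mrc2 (adjusted p = 0.0065). At 4 weeks Oscar and Ddr1 were lower among 12 tested (-1.80 ± 0.61 and -0.33 ± 0.14). Of 5 collagenase and gelatinase genes, Mmp2, Mmp13 and Mmp14 were higher at 12 weeks, with Mmp14 at 0.69 ± 0.19 and Mmp2 at 0.54 ± 0.20, and Mmp2 at 4 weeks (0.36 ± 0.14). DESeq2 called 1 of these 5 genes at 12 weeks.

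The highest values of the collagen genes lay in few libraries. At 4 weeks OA replicate 2 held the highest value of 10 of the 39 genes, among them Col3a1, Col5a1, Col5a2, Col11a1 and Col12a1. Sham replicate 4 held that of 11, among them Col1a1, Col2a1, Col6a1 and Col6a2, and sham replicate 3 that of another 11, among them Col4a6, Col6a5, Col7a1 and the 3 type 9 genes. At 12 weeks OA replicate 1 held the highest value of 16 of the 39, among them Col1a1, Col3a1, Col5a1 and Col14a1, and sham replicate 3 that of 9, among them Col4a1, Col4a2, Col6a1 and Col6a6. At 4 weeks, leaving out sham replicate 1, 2 or 3 left 5 collagen genes higher at an unadjusted p under 0.05 in place of 8, and leaving out OA replicate 1 or sham replicate 1, 2 or 5 raised the number lower from 3 to 6, 8, 5 and 6. Over all genes, the number higher went from 609 of 14861 to 789 of 14946, 513 of 14861 and 893 of 14468 in the same order. The number lower went from 568 of 14861 to 538 of 14892, 753 of 14946, 459 of 14861 and 752 of 14934. At 12 weeks, leaving out sham replicate 3 raised the number called by limma from 0 to 5, all higher. They were Col1a1, Col5a1, Col6a6, Col14a1 and Col22a1, where 0.525% of all genes were called higher and 0.0273% lower. Leaving out any other 12-week library left the number called at 0. Without OA replicate 4 the number lower at an unadjusted p under 0.05 went from 3 to 1. Over all genes it then went from 971 of 14666 to 438 of 14651. Without sham replicate 3, 5 collagen genes were higher and 2 lower at an unadjusted p under 0.05 at 4 weeks (6.17% and 4.24% of all genes), none was called where 0.00691% of all genes were called higher, and 16 were higher and 2 lower at 12 weeks (6.39% and 6.47%).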

How the data were processed

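RNA was measured in CD11b/c-sorted synovial cells of 18 libraries, each from separate pools of rats, so p-values measure the spread between pools. The study's methods give 5 replicates per condition at both weeks, while 4 per group at 12 weeks were analysed here, as labelled. Per the labels and the study's methods, the authors checked read quality with fastp 0.20.0, aligned reads to Rnor_6.0 with STAR 2.7.6a, dropped duplicates (Sambamba), counted reads by gene (featureCounts 2.0.0) and divided the counts by DESeq2 1.24.0 size factors within each week. Removal of duplicates lowers the counts of abundant genes most. The kit was stranded, and the strand setting of the counting was not given in the sources used here, so overlapping antisense genes cannot be told apart. The deposited values used here are that signal, called normalized reads. The deposited tables also hold the authors' own comparisons (a log2 fold change with its error, a Wald score and p-values), which were not used.

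Since every value was a whole multiple of what 1 read is worth (100% of values within 0.01 of a whole read), read counts were recovered from the deposited signal. Libraries of a group were compared for repeats, and all 32 pairs differed beyond sampling noise, with a chi-square per degree of freedom of 5.39 to 35.0. Floors of 3 reads cover counting error only.

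Genes averaging 10 or more normalized reads in a week were tested with limma 3.58.1 (R 4.3.3) on log2(normalized reads + 1), OA against sham within a week, with Benjamini-Hochberg adjustment over all genes tested. The pseudocount understates the change of low genes. The difference between weeks was the interaction in limma on log2 CPM of recovered reads with TMM factors and a prior count of 2. Partner ratios were tested with a two-sided exact permutation test. On recovered reads, edgeR 4.0.16 (quasi-likelihood) called 0 genes at both weeks, and DESeq2 1.42.0 called 27 genes at 4 weeks and 95 at 12 weeks. The fits were tested on simulated data. Other alternatives were the pseudocount, the filter on low values, TMM scaling, a block on the replicate number, sample quality weights, a fibroblast marker term, the adjusted p alone, and leaving out each library in turn. Summed levels and ratios were also computed without sham replicate 3, chosen after seeing the data.

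Members and lists were chosen with earlier results of these data known. Values in every library are given for 24 genes: 14 main chains, the 2 genes of each chain type with the smallest p in each week, genes called by any tool and the 3 with the largest difference between weeks. Those of Col28a1 were added after its values were seen. Motifs were searched on both strands of the 250 bases before RefSeq starts on GRCr8, and no coordinates of the files were used. The numbers of same-numbered replicates did not pair the libraries.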

Additional observations from a re-analysis of the deposited data

Results flagged for a closer look

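Of 96 groups of libraries examined for the 24 genes, 10 (10.4%) held 1 library whose gap to its nearest neighbour was large against the range of its group, where chance gives about 1 in 20. The 24 genes share the same libraries, so these groups are not independent and the number was not tested against that rate. A library numbered replicate 3 was the one apart in 7 of the 10.

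In sham at 12 weeks, replicate 3 stood above the others in 4 genes. Col1a1 had 16554 normalized reads there against 10716 to 11056, Col16a1 838 against 484 to 517, Col22a1 482 against 183 to 228, and Col6a6 598 against 336 to 361. In sham at 4 weeks, replicate 3 had 139 for Col6a5 against 14.7 to 38.7 and 55.7 for Col6a4 against 24.9 to 32.8, and replicate 5 had 6428 for Col18a1 against 5149 to 5451. Col4a4 had 725 in OA replicate 3 at 4 weeks against 570 to 602 in the other OA libraries, and 288 in sham replicate 2 at 12 weeks against 574 to 632 in the other sham libraries. Col9a1 had 40.8 in OA replicate 4 at 12 weeks against 12.2 to 16.3. Sham replicate 3 at 12 weeks also had the highest summed fibroblast, endothelial, pericyte and chondrocyte markers and the lowest summed macrophage markers of its group, and their part in these values was not tested.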

How the results depend on the processing

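Of 48 log2 fold changes (24 genes at 2 weeks), 34 kept their direction under every alternative run and 14 did not. The calls rest on 4 or 5 pools a group, and genes near 10 normalized reads rest on few reads. The causes of the moves below were not tested.

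With genes averaging 50 or more normalized reads, 1 collagen gene was lower at an unadjusted p under 0.05 at 4 weeks in place of 3. Over all genes, 262 of 11619 were lower in that fit. DESeq2 called 1 and 2 genes at 4 and 12 weeks in place of 0, with 5 lower at 4 weeks (752 of 14861 over all genes). With the fibroblast term, 5 genes were higher and 8 lower at 4 weeks (median -0.043), and 1 was called, 1 higher and 8 lower at 12 weeks (median -0.016). Among the 24 genes, that term turned Col6a1 (-0.044), Col6a2 (-0.043) and Col3a1 (-0.011) at 4 weeks, and Col6a1 (-0.27), Col6a2 (-0.23), Col4a6 (-0.37), Col6a6 (-0.21), Col12a1 (-0.072) and Col16a1 (-0.11) at 12 weeks. Collagen genes outside the 24 turned as well, among them Col4a5 (-0.62) at 12 weeks. Sample quality weights turned Col6a5 at 12 weeks (0.0040).

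Leaving out 1 library, the number higher at 4 weeks ranged from 5 (sham 1, 2 or 3) to 12 (sham 4) and the number lower from 2 to 8 (sham 1). At 12 weeks the number called ranged from 0 to 5 (sham 3), the number higher from 11 to 16 and the number lower from 1 (OA 4) to 3. For the difference between weeks, the number higher ranged from 2 (4-week OA 4 or 5, sham 3 or 4) to 7 (4-week OA 1 or sham 1, 12-week sham 3), and the number lower from 0 to 2. The medians ranged from 0.059 to 0.15 at 4 weeks and from 0.16 to 0.36 at 12 weeks. Among the 24 genes, log2 fold changes that crossed 0 were those of Col6a6 (-0.12 to 0.15) and Col10a1 (-0.60 to 0.0011) at 4 weeks, and of Col6a5 (-0.26 to 0.075), Col10a1 (-0.14 to 0.32), Col6a4 (-0.17 to 0.41), Col6a1 (-0.0068 to 0.19) and Col4a6 (-0.020 to 0.42) at 12 weeks. Ratios that crossed 0 were Col5a2 to Col5a1 (-0.045 to 0.061 at 4 weeks, -0.074 to 0.012 at 12 weeks), Col4a2 to Col4a1 (-0.068 to 0.025 at 4 weeks) and Col6a2 to Col6a1 (-0.014 to 0.013 and -0.024 to 0.015).

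With the replicate number as a block, 11 collagen genes were higher and 4 lower at 4 weeks, 16 and 3 at 12 weeks, and 6 and 1 for the difference between weeks, with 0 called in each. Over all genes the blocked fit had 519 higher and 517 lower of 14861 at 4 weeks (1 called), 992 and 1193 of 14666 at 12 weeks, and 360 and 195 of 14420 between weeks. Same-numbered OA and sham libraries correlated at -0.13 to 0.080 at 4 weeks and -0.026 to 0.30 at 12 weeks, and the numbers were not taken as pairs.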
